A study of Homo sapiens with 8 samples.

Results

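The 10 genes of the ATF4 amino acid stress response were followed in RNA-seq of MV4-11 cells: ATF4, ATF3, ATF5, CEBPG, DDIT3, TRIB3, CHAC1, SESN2, ASNS and ADM2. They were found by their symbols in a table of 26364 genes, and all 10 were present and passed the filter for testing, a TPM (a read share scaled for gene length and summed to the same total in each library) of 1 or more in 2 or more libraries, as did 14151 genes in all. The 10 genes were chosen by their measured TPM in these same libraries, namely their lower levels under palbociclib, alone or in the combination, and their spread between replicate libraries of control and of TCP. Those values are therefore given as a description with no p-value.

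MV4-11 is an established human acute myeloid leukemia (AML) cell line that carries FLT3-ITD and MLL-AF4. The 4 groups, with 2 libraries each and RNA taken at day 4, were vehicle (DMSO, called control), 5 μM TCP, 0.5 μM palbociclib, and the 2 drugs together at these doses (called combination). TCP, tranylcypromine, inhibits the histone demethylase LSD1, and palbociclib inhibits the cell cycle kinases CDK4 and CDK6. The methods of the study give 1 day of palbociclib before 3 days with both molecules, so the exact length of TCP exposure is uncertain, and they describe a coculture of these cells on HS-5 stromal cells. All libraries come from 1 cell line, and nothing states that the 2 libraries of a group came from separate cultures, so p-values measure only the spread between these libraries, which may be technical.

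ATF4 is the transcription factor of the integrated stress response. When amino acids run short, or heme, redox or protein folding is disturbed, kinases phosphorylate eIF2alpha, general translation slows, and the ATF4 message is translated better through its upstream open reading frames. ATF4 then dimerizes with C/EBP proteins on C/EBP-ATF response elements and raises genes for amino acid synthesis, amino acid import and tRNA charging, along with factors that prolong or end the response. RNA-seq reads the messages only: ATF4 protein and eIF2alpha phosphorylation were not measured here.

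The element through which ATF4 and its C/EBP partners act has the core TGATGNAA. For that reason it was searched on both strands in the promoters of the RefSeq reference (build GRCh38.p14, 250 bases before to 50 after each annotated start). All 10 genes had promoters there, 19 in all, and 4 genes held the core in 1 promoter each: ASNS, ATF3, CEBPG and CHAC1. Over all genes 1270 of 35116 promoters (3.62%), or 1217 of 27305 genes (4.46%), held it. The cyclic AMP response element TGACGTCA was in none of the 19 promoters and in 1.85% of all promoters. The 4 windows are printed 5′ to 3′ on the strand of the gene, with the core in capitals, and end before the start of transcription.
ASNS, chr7:97872429-97872516, minus strand, core 68 bases before the start: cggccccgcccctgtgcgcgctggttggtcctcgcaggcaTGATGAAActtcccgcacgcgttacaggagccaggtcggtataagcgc
ATF3, chr1:212565176-212565263, plus strand, core 191 bases before the start: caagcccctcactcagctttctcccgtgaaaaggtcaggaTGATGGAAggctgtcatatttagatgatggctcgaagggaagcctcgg
CEBPG, chr19:33374031-33374112, plus strand, core 42 bases before the start: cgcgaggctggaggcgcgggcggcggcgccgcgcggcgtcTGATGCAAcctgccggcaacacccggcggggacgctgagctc
CHAC1, chr15:40953222-40953309, plus strand, core on the opposite strand, 209 bases before the start: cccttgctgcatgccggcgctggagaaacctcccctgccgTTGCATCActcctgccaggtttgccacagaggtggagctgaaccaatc
A match is a description of these letters, and the other 6 genes only lack them in these windows. The 4 genes with the core include the gene with the smallest difference under palbociclib, CEBPG, and one of the 3 with the largest, ASNS, in the values that follow.

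The deposited table gives TPM, which sums to 1000000 in each library, so read depth is unknown. Between 13320 and 13640 genes reached 1 TPM per library. The myeloid markers CD33 (103 to 141 TPM) and SPI1 (208 to 497 TPM) were present in all libraries, and CD3E, MS4A1 and HBB were listed at 0. Replicate 2 of palbociclib stood apart by stromal transcripts: 11 stromal markers summed to 72.7 TPM there, with COL1A1 at 22.2 TPM, and to 4.83 TPM in replicate 1. In replicates 1 and 2 the sum was 0.955 and 5.31 TPM in control and 1.11 and 5.40 TPM with TCP. With the combination it was 7.70 and 13.5 TPM, so the sum was higher in replicate 2 of every group. A 12th marker, TAGLN, was at 8.30 to 17.7 TPM in every library, and POSTN was listed at 0. The 10 most abundant entries took 9.12 to 9.67% of TPM in the libraries without palbociclib and 14.0 to 15.8% in those with it, and the part of that shift in the results was not tested. The median log2 fold change of all genes tested was -0.16 for palbociclib and -0.22 for the combination against control, and scaling by median ratios brought both to 0.00. With that scaling the palbociclib difference of the 10 genes ran from -0.31 for CEBPG to -3.80 for ADM2, in place of -0.49 to -3.93. The messages of the drug targets were all present: KDM1A, which encodes LSD1, had 79.6 and 85.0 TPM in control and 47.4 and 42.5 TPM with palbociclib. In bulk RNA, fewer cells of a kind and less message per cell cannot be told apart.

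Summed over the 10 messages, control had 2034 and 1650.2 TPM and TCP 1745 and 1277 TPM. With palbociclib the sum was 522 and 545 TPM, and with the combination 501 and 537 TPM. The libraries thus fell into a high pair of groups, control and TCP, and a low pair, palbociclib and combination. In every one of the 10 genes each of the 4 libraries with palbociclib was below each of the 4 libraries without it, the separation for which the genes were chosen. Of all genes tested, 36.5% were separated in this way and direction, while 4.56% were called lower with palbociclib and 7.82% with the combination. By mean TPM in control, ATF4 itself was the most abundant of the 10, followed by ATF5, ASNS and CEBPG, and ATF3 was the least abundant. Single control libraries differed from this order. DDIT3 (133 TPM) was above CEBPG (123 TPM) in replicate 1, and ADM2 (13.7 TPM) was below ATF3 (15.9 TPM) in replicate 2.

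**Figure D1:**
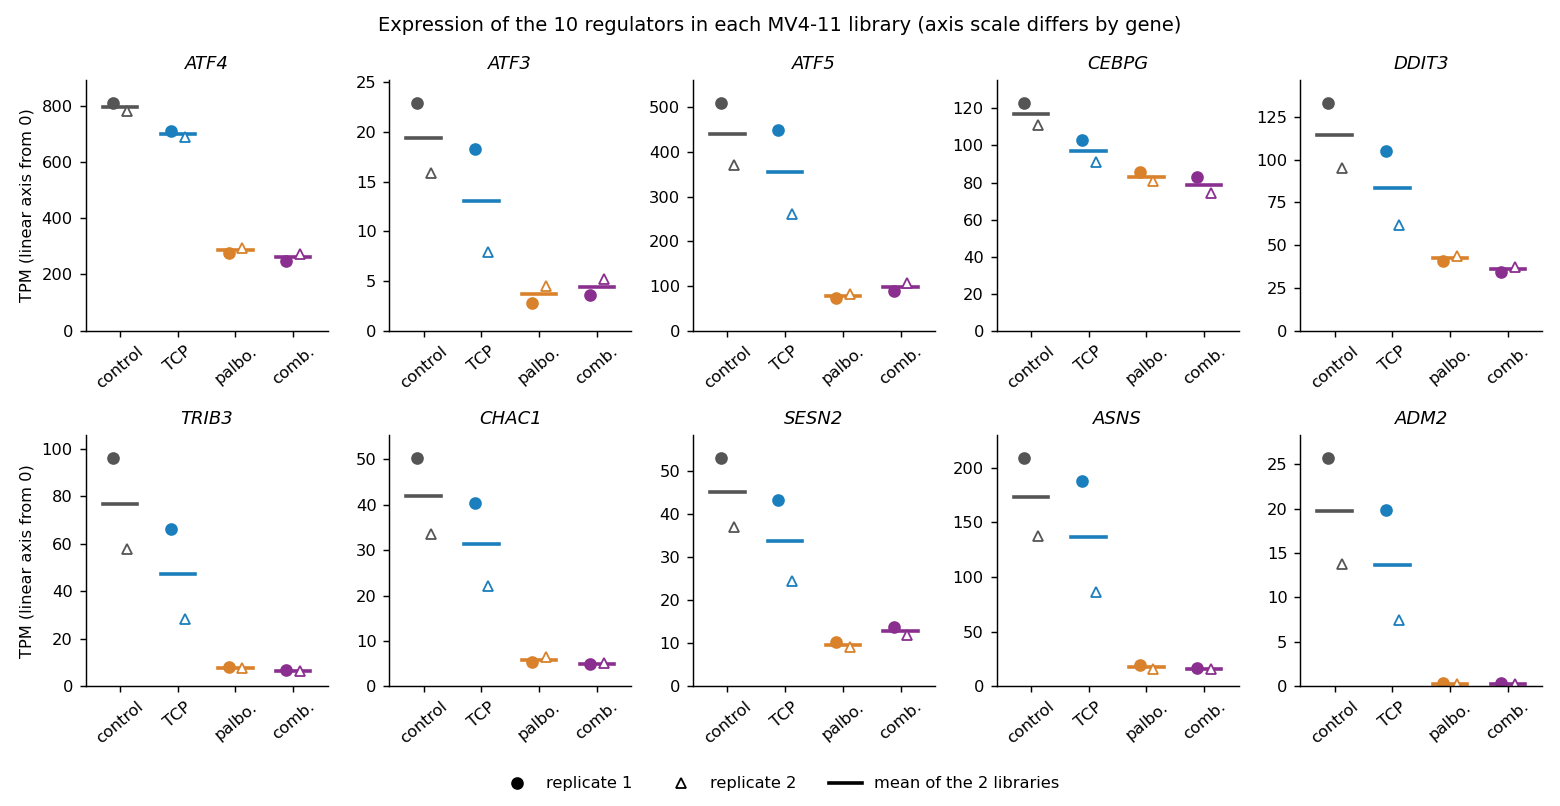
TPM of each of the 10 genes (linear axis from 0, its scale differing by gene) in the 2 libraries of control, TCP, palbociclib (palbo.) and combination (comb.); filled circles are replicate 1, open triangles replicate 2 and lines the mean. The palbociclib and combination libraries lie below all control and TCP libraries in each panel, narrowly for CEBPG, and replicate 1 lies above replicate 2 in control and TCP in all panels.

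ATF4 was at 811 and 779 TPM in control and 712 and 687 TPM with TCP. It was at 275 and 295 TPM with palbociclib and 249 and 273 TPM with the combination. The 4 groups did not overlap, and the order of the means was control (795 ± 22.4 TPM, SD, n = 2), TCP (699 ± 17.4), palbociclib (285 ± 14.1) and combination (261 ± 17.0). On the log2(TPM + 1) scale, which is used for every fold change below, ATF4 was lower by -1.48 ± 0.08 (SE) with palbociclib and by -1.60 ± 0.08 with the combination. The gap between palbociclib and the combination was of the size of the spread within each. ATF4 lies on chromosome 22 (GRCh37, 39915700 to 39918688, plus strand) and overlaps no other annotated gene.

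ATF5, a related bZIP factor whose own message is also under eIF2alpha-dependent translation, was at 510.1 and 369 TPM in control and 449 and 261 TPM with TCP. It was at 73.8 and 81.6 TPM with palbociclib and 88.0 and 107 TPM with the combination. Control and TCP overlapped, and the combination libraries were slightly above those of palbociclib. Its difference from control was -2.47 ± 0.26 with palbociclib and -2.15 ± 0.26 with the combination. ATF5 (chromosome 19, 50431959 to 50437192, plus strand) hosts the microRNA gene MIR4751 and overlaps NUP62 and IL4I1 on the opposite strand, and since the strand setting of the counting is not given in the sources used here, their reads cannot be told apart.

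ATF3, an early stress-induced bZIP factor, was at 22.9 and 15.9 TPM in control and 18.2 and 7.92 TPM with TCP. It was at 2.79 and 4.52 TPM with palbociclib and 3.55 and 5.19 TPM with the combination. Here the higher library was replicate 1 without palbociclib and replicate 2 with it, as was also so for ATF4, ATF5, DDIT3 and CHAC1. The differences from control were -2.14 ± 0.39 and -1.92 ± 0.39.

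CEBPG, a C/EBP protein without an activation domain of its own that pairs with ATF4, stood apart from the other 9. It was at 123 and 111 TPM in control, 103 and 91.0 TPM with TCP, 85.5 and 80.9 TPM with palbociclib and 83.1 and 74.5 TPM with the combination. Its palbociclib and combination libraries overlapped, and its control and TCP libraries did not. The difference from control was -0.49 ± 0.10 with palbociclib and -0.57 ± 0.10 with the combination, short of the threshold of 1.

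DDIT3 encodes CHOP, the C/EBP family factor that favors cell death when the response lasts. It was at 133 and 95.4 TPM in control and 105 and 61.5 TPM with TCP, and at 40.7 and 43.9 TPM with palbociclib and 34.3 and 37.5 TPM with the combination. Control and TCP overlapped, and the combination libraries were below those of palbociclib. The differences from control were -1.39 ± 0.25 and -1.63 ± 0.25, the smallest of the 9 genes below the threshold with palbociclib. DDIT3 (chromosome 12, 57910371 to 57915520, minus strand) overlaps MARS1 and MBD6 on the opposite strand, with the same limit on its reads as for ATF5.

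TRIB3, a pseudokinase that restrains ATF4 and CHOP, was at 96.1 and 57.7 TPM in control and 66.2 and 28.3 TPM with TCP. It was at 8.13 and 7.62 TPM with palbociclib and 6.71 and 6.39 TPM with the combination. The libraries with palbociclib lay close together while those without it spread widely. Mean TPM with palbociclib was 10.2% of control, and with the combination 8.51%, and the log2 differences were -3.09 ± 0.38 and -3.32 ± 0.38.

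CHAC1 degrades glutathione, and its message is a common readout of ATF4 activity. It was at 50.3 and 33.5 TPM in control and 40.4 and 22.1 TPM with TCP, and at 5.28 and 6.53 TPM with palbociclib and 4.95 and 5.06 TPM with the combination. SESN2 restrains mTORC1 when leucine is short. It was at 53.0 and 37.1 TPM in control and 43.3 and 24.4 TPM with TCP, and at 10.2 and 9.15 TPM with palbociclib and 13.8 and 12 TPM with the combination. CHAC1 was lower by -2.61 ± 0.29 and -2.81 ± 0.29 with palbociclib and with the combination. For SESN2 the differences were -2.09 ± 0.27 and -1.71 ± 0.27, and its combination libraries were above both palbociclib libraries.

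ASNS, asparagine synthetase, makes asparagine from aspartate and glutamine. It was at 209 and 137 TPM in control and 188 and 85.9 TPM with TCP, and at 19.5 and 15.7 TPM with palbociclib and 16.5 and 15.8 TPM with the combination. Palbociclib and the combination overlapped, with means at 10.2% and 9.33% of control. The differences from control were -3.20 ± 0.36 and -3.31 ± 0.36.

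ADM2 encodes adrenomedullin 2, a secreted peptide of the calcitonin family, and showed the largest difference of the 10. It was at 25.7 and 13.7 TPM in control and 19.8 and 7.50 TPM with TCP. All 4 libraries with palbociclib were under 1 TPM, at 0.361, 0.238, 0.356 and 0.274 TPM. Mean TPM with palbociclib was 1.52% of control, while the log2 difference of -3.93 ± 0.43 corresponds to 15.3-fold, since adding 1 to the TPM understates the change of a message at this level. ADM2 (chromosome 22, 50919972 to 50924869, plus strand) overlaps SBF1 on the opposite strand.

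**Figure D2:**
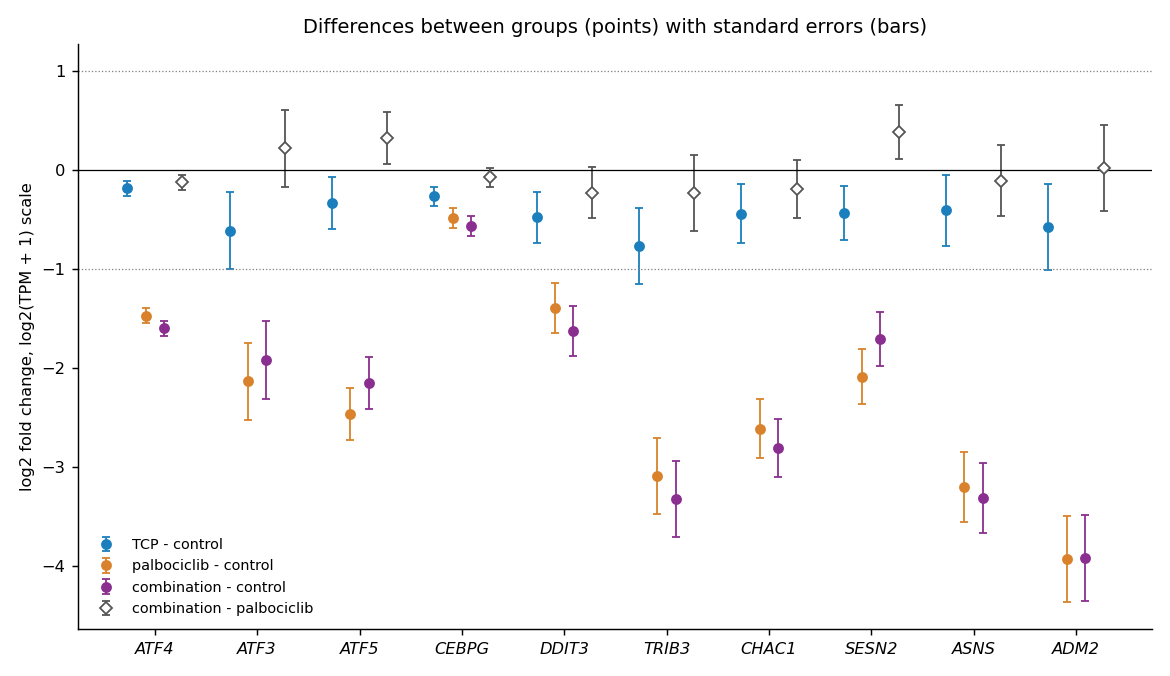
log2 fold change on the log2(TPM + 1) scale (vertical axis, points) with its standard error (bars) for each gene, for TCP, palbociclib and the combination against control and for the combination against palbociclib; dotted lines mark the threshold of 1. Palbociclib and combination points lie between -0.49 and -3.93, and TCP points and the open diamonds lie within the dotted lines.

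By the call used for differentially expressed genes (DEG), a log2 change of 1 or more in size together with an adjusted p below 0.01 in limma (Benjamini-Hochberg), 9 of the 10 genes were lower with palbociclib than in control. Of all genes tested, 4.56% were called lower there (4.54% higher). Against control, the combination also had 9 of 10 lower, where 7.82% of all genes were called lower (5.87% higher). The combination against TCP had 8 of 10 lower, without ATF3 and CEBPG, where 6.70% of all genes were called lower. These 3 comparisons hold the palbociclib effect the genes were chosen for and share libraries, so nothing is read from these counts. The medians over the 10 were -2.30, -2.04 and -1.61, beside -0.16, -0.22 and -0.18 over all genes tested. Without replicate 2 of palbociclib, the library with the most stromal transcripts, 5 of the 10 were called against control, the calls of ATF3, DDIT3, TRIB3 and SESN2 being lost, while the median was -2.54 to -2.06 without any 1 library. Without replicate 1 or replicate 2 of the combination, 4 and 5 genes were called against TCP.

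Whether the LSD1 inhibitor moved these messages was asked in TCP against control, in the combination against palbociclib and in the interaction, which were known when the genes were chosen and share libraries with those above. Their standard errors, intervals and p-values rest on the spread between replicate libraries, and the spread within control and TCP was part of how the genes were chosen, so these are no independent test of the 10 genes. None of the 10 was called with TCP against control, where 8 of all genes tested (0.0565%) were called in either direction. All 10 log2 differences were negative, from -0.77 for TRIB3 to -0.19 for ATF4, with a median of -0.44 beside -0.04 over all genes tested, and 61.4% of all genes were negative. In limma 2 of the 10 had an unadjusted p under 0.05, as had 8.77% of all genes tested: CEBPG at -0.27 (95% interval -0.51 to -0.04, adjusted p = 0.483) and ATF4 at -0.19 (-0.36 to -0.01, adjusted p = 0.547). The TCP and control libraries of 2 of the 10 genes, these same ones, did not overlap, beside 34.7% of all genes tested. For TRIB3 the interval ran from -1.68 to 0.14 (adjusted p = 0.651), so a difference past the threshold was not excluded. Over the 10 genes the adjusted p was 0.483 to 0.810.

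The size of the TCP difference rested on which libraries were compared. Without replicate 1 of TCP the median over the 10 was -0.86, and without replicate 2 it was -0.05, with ATF5, ASNS and ADM2 then slightly above control. When TCP and control libraries of the same replicate number were set against each other, all 10 were lower with TCP at number 1 (median -0.30) and at number 2 (median -0.60). With the replicate number as a block, the lowest adjusted p among the 10 was 0.0989, for CEBPG, and none was called.

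The combination against palbociclib asks what TCP adds to palbociclib. None of the 10 was called, where 0.502% of all genes were, with adjusted p from 0.446 to 0.992 in limma and 0 of the 10 at an unadjusted p under 0.05, beside 17.5% of all genes tested. ATF3, ATF5, SESN2 and ADM2 had positive and the other 6 negative differences, with a median of -0.09. ATF4 differed by -0.13 (95% interval -0.31 to 0.05), CEBPG by -0.08 (-0.31 to 0.16) and ASNS by -0.11 (-0.95 to 0.73). The intervals of ATF4, ATF5, CEBPG, DDIT3, CHAC1 and ASNS lay within the threshold of 1. Those of ATF3, TRIB3, SESN2 and ADM2 passed it on at least 1 side. The libraries of 4 genes overlapped between these groups, and those of 6 did not, beside 53.7% of all genes tested that did not: ATF5 and SESN2 were higher in both combination libraries, and ATF4, DDIT3, TRIB3 and CHAC1 lower.

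The interaction asks whether the combination departs from the sum of the 2 single changes on the log scale. It was positive in all 10 genes, with a median of 0.42 beside -0.03 over all genes tested, of which 55.7% were negative. The interaction holds the TCP difference with its sign reversed, so this is not separate from the 10 negative TCP differences. None of the 10 was called, as of all genes (0.00%, with 904 genes at an unadjusted p under 0.05 in limma). SESN2 had the lowest p of the 10, with 0.81 ± 0.39 (95% interval -0.10 to 1.73, adjusted p = 0.829 in limma), and adjusted p over the 10 ran to 0.998, with 0 of the 10 at an unadjusted p under 0.05. Without replicate 1 of TCP the median was 0.95, and without replicate 2 it was -0.01.

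The spread between the 2 libraries of a group was itself large for these genes in control and in TCP. In both groups all 10 were lower in replicate 2 than in replicate 1, beside 49.7% of all genes tested in control and 57.2% in TCP. The median difference was -0.50 in control and -0.82 in TCP, beside 0.00 and -0.05 over all genes. ADM2 spread the most, by -0.86 and -1.29, followed by TRIB3 with -0.73 and -1.20 and ASNS with -0.60 and -1.12. ATF4 and CEBPG spread the least, by -0.06 and -0.05 for ATF4 and by -0.15 and -0.18 for CEBPG. In control 6 of the 10, and in TCP 8 of the 10, were more than 0.5 lower in replicate 2, beside 4.46% and 9.34% of all genes. With palbociclib and with the combination 5 of 10 were lower in replicate 2, with medians of 0.01 and -0.01. What the replicate numbers share is not given in the labels.

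The other lists of ATF4 pathway genes, chosen like the 10 with earlier results of these data known, also had most genes lower in replicate 2 of control and TCP, by smaller medians. In TCP, 12 of 13 amino acid enzymes, 8 of 9 transporters, 11 of 11 synthetases and 12 of 12 stress effectors were lower, with medians of -0.65, -0.40, -0.35 and -0.62. In control these were 12, 9, 11 and 11 genes, with medians of -0.38, -0.13, -0.14 and -0.30. More than 0.5 lower in control were 3 enzymes, 1 transporter, 1 synthetase and 3 stress effectors, beside 4.46% of all genes tested. In TCP these were 9, 2, 2 and 7 genes, beside 9.34% of all genes tested. With palbociclib 12 of 13 enzymes (median -0.27) and 9 of 11 synthetases (-0.12) were lower in replicate 2. So were 4 of 9 transporters (0.05) and 7 of 12 stress effectors (-0.06), beside 5 of the 10 genes and 56.2% of all genes tested. Whether the lists differ from the 10 in this was not tested. In TCP the 14 chaperones of the unfolded protein response had a median of -0.06, with 9 lower, and in control -0.09, with 12 lower.

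Upstream of ATF4, none of 12 eIF2alpha kinases and regulators was called in palbociclib or the combination against control by limma, where 9.10% and 13.7% of all genes tested were called. At an unadjusted p under 0.05 there were 6 of the 12 in each, beside 53.3% and 59.2% of all genes tested. Of the 4 kinases that phosphorylate eIF2alpha, EIF2AK4 (GCN2), which senses uncharged tRNA, was at 26.4 and 28.4 TPM in control and 21.6 and 19.7 TPM with palbociclib. EIF2AK3 (PERK), the kinase of the endoplasmic reticulum, was at 14.7 and 12.8 TPM in control and 9.32 and 8.74 TPM with palbociclib. EIF2AK1 (HRI), which senses heme, was at 125 and 145 TPM and at 107 and 111 TPM. None of these 3 pairs overlapped, beside 76.2% of all genes tested that did not, and their differences were within the threshold of 1. EIF2AK2 (PKR), the double-stranded RNA sensor, was at 48.6 and 29.0 TPM in control and 14.8 and 21.3 TPM with palbociclib (-1.04 ± 0.46), with 15.1 TPM in replicate 2 of TCP, and did not pass the test.

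Downstream of ATF4, 11 of 13 amino acid enzymes were called lower in each comparison, and none higher. Of all genes tested, 4.56% were called lower with palbociclib and 7.82% with the combination. This list and those that follow were chosen with earlier results of these data known, so their counts are a description. PHGDH, which opens serine synthesis, was at 274 and 179 TPM in control, 249.5 and 116 TPM with TCP, 2.09 and 1.36 TPM with palbociclib and 1.30 and 2.06 TPM with the combination. That difference, -6.36 ± 0.38 with palbociclib, was larger than that of any of the 10 genes. BCAT1, which transfers the amino group of branched-chain amino acids, fell from a control mean of 57.6 ± 11.8 to 2.73 ± 0.154 TPM with palbociclib (SD, n = 2). CBS, the entry to cysteine synthesis from homocysteine, fell from 45.5 ± 6.89 to 3.33 ± 1.43 TPM. The median over the 13 was -3.13 with palbociclib and -3.29 with the combination. Leaving out any 1 library gave 10 or 11 lower with palbociclib and 11 with the combination.

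Of 9 amino acid transporters tested, 7 were called lower and 1 higher in each comparison. Among all genes tested these shares were 4.56% and 4.54% with palbociclib, and 7.82% and 5.87% with the combination. SLC7A5, the light chain of the large neutral amino acid transporter, was at 381 and 312 TPM in control and 60.1 and 64.9 TPM with palbociclib. SLC1A5, which imports glutamine, was at 365 and 349 TPM and at 92.0 and 91.6 TPM. The one that went the other way was SLC7A11, the cystine importer, an ATF4 target that NRF2 also drives. It was at 29.2 and 24.3 TPM in control, 23.3 and 11.6 TPM with TCP, 101 and 115 TPM with palbociclib and 72.9 and 78.5 TPM with the combination. It rose by 1.97 ± 0.28 with palbociclib and 1.47 ± 0.28 with the combination, and these calls were lost without replicate 2 of control or of palbociclib in the palbociclib comparison, and without any 1 library of control or the combination, or with no filter on low values, in the other. All its libraries with palbociclib were above all those without.

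Of 11 genes for tRNA charging, 9 were called lower with palbociclib and 8 with the combination, and none higher. Among all genes tested 4.56% and 7.82% were called lower. GARS, the glycyl-tRNA synthetase, was at 279 and 264 TPM in control and 51.4 and 55.2 TPM with palbociclib, and AARS, the alanyl-tRNA synthetase, at 326 and 286 TPM and at 84.7 and 77.8 TPM. The median over the 11 was -1.41 and -1.61. Of 12 stress effectors and secreted factors tested, 6 were called lower in each comparison and none higher, beside the same shares of all genes tested. DDIT4, an inhibitor of mTORC1, fell by 2.80 with palbociclib, from 384 and 253 TPM to 44.9 and 42.8 TPM. JDP2, a bZIP factor of the ATF3 family, fell by 2.18. The count of 6 was 3 or lower under 5 of 18 alternatives with palbociclib and under 3 of 18 with the combination. Most of these left out 1 library of control, palbociclib or the combination.

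**Figure D3:**
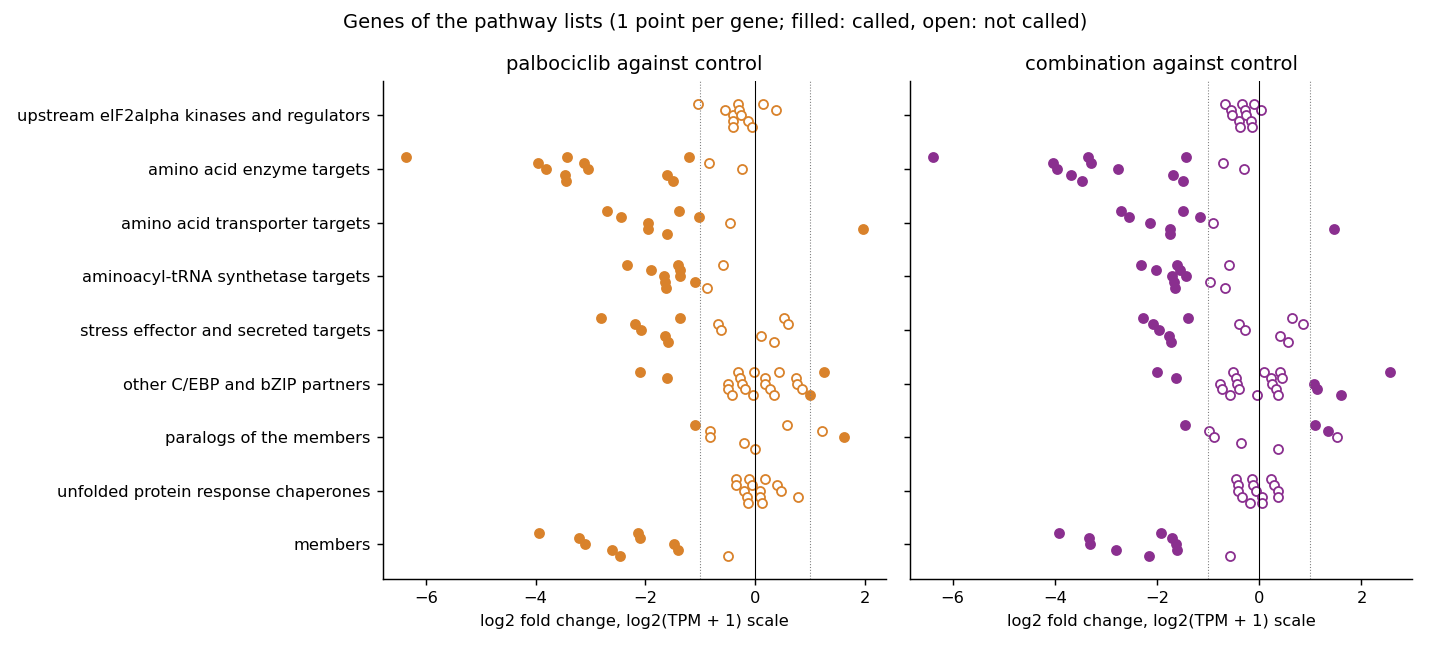
log2 fold change (horizontal axis, log2(TPM + 1) scale) of every tested gene of 8 pathway lists and the 10 regulators (rows of points, spread vertically to be seen), for palbociclib and for the combination against control; filled points passed the call and open points did not, and dotted lines mark the threshold of 1. Enzymes, transporters and synthetases lie mostly left of the line at -1, with SLC7A11 alone on the right, and the eIF2alpha regulators and unfolded protein response chaperones hold no filled point.

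The unfolded protein response chaperones, the targets of the endoplasmic reticulum arms other than ATF4, had no gene called of 14 by limma in either comparison, with medians of 0.02 and -0.09 beside -0.16 and -0.22 over all genes tested. There were 6 and 8 of the 14 at an unadjusted p under 0.05, where all genes tested gave 53.3% and 59.2%, and 9.10% and 13.7% called, so 0 of 14 is near the background. HSPA5, the main chaperone of the reticulum, was at 526 and 478 TPM in control and 618 and 712 TPM with palbociclib. XBP1, the factor of the IRE1 arm, was by contrast lower, with 1237 and 1013 TPM in control and 382 and 353 TPM with palbociclib (-1.60 ± 0.16). XBP1 was 1 of 2 genes called lower among 21 C/EBP and bZIP factors tested, the other being BATF3 (-2.09 ± 0.24). With palbociclib 2 of these factors were called higher, CEBPD (1.004 ± 0.13) among them. With the combination 4 were, among them JUN (1.59 ± 0.36), CEBPD (1.12 ± 0.13) and CEBPB (1.07 ± 0.07). Of all genes tested, 4.56% were called lower and 4.54% higher with palbociclib, and 7.82% and 5.87% with the combination. Counts of 2 of 21 are therefore not read as a result about these factors. The count of 2 called higher with palbociclib fell to 0 or 1 without replicate 1 or 2 of control, replicate 2 of palbociclib or either combination library. It was 1 under 3 other alternatives. CEBPB, a partner of ATF4 on its response elements, was at 85.4 and 90.1 TPM in control, 61.5 and 62.6 TPM with TCP, 154 and 166 TPM with palbociclib and 185 and 185 TPM with the combination, so that it was higher in the libraries with palbociclib where CEBPG was lower.

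Of 8 close relatives of the 10 genes, 1 was called higher and 1 lower with palbociclib, and 2 higher and 1 lower with the combination. Of all genes tested 4.54% were called higher and 4.56% lower with palbociclib, and 5.87% and 7.82% with the combination, so a count of 1 of 8 is not read as a result about the relatives. SESN3 was at 2.17 and 2.24 TPM in control and 7.59 and 10.4 TPM with palbociclib and rose by 1.63 ± 0.17, opposite to SESN2, while SESN1 was at 8.31 and 7.22 TPM and at 12.5 and 11.7 TPM and was not called. CHAC2, which degrades glutathione more slowly than CHAC1, fell by 1.09 with palbociclib, a call lost without replicate 1 of control, without replicate 2 of palbociclib and after quantile or median-ratio scaling, and by 1.46 with the combination. TRIB2 was at 1.08 and 1.04 TPM in control and at 2.67 and 4.18 TPM with the combination (1.08 ± 0.23, called), and TRIB1 was not called. The count of 2 relatives called higher with the combination was 1 under 6 of 18 alternatives. ADM, the other adrenomedullin gene, was at 2.83 and 8.43 TPM in control and 8.48 and 19.7 TPM with palbociclib and was not called. With the combination ADM was at 16.0 and 16.3 TPM (1.51 ± 0.47, adjusted p = 0.0311 in limma, not called), and with the replicate number as a block it was called higher (adjusted p = 0.00811), the only relative whose call in that comparison changed under the block. ADM5 and ASNSD1 were not called either.

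The genes most like the mean of the 10 were ranked by the root mean square difference of their centered log2(TPM + 1) values over the 8 libraries, among 11098 other genes with a mean of at least 5 TPM. The nearest were JDP2 (0.15), MIR4751 (0.15), GARS (0.15), RGS16 (0.16), PFKFB4 (0.18), ALDOC (0.19), AARS (0.21), MTHFD1L (0.21), PMAIP1 (0.21) and LOC101929705 (0.23), beside a median of 0.98 over all candidates. MIR4751 lies within ATF5 and can hold its reads. Of the 10 genes themselves, ATF5 was nearest to their mean (0.14) and CEBPG and ADM2 farthest (0.86 and 0.80). The genes nearest to ATF4 alone were NEMP2 (0.07), SEPT11 (0.08) and SLC7A1 (0.08), and those nearest to ASNS alone were ULBP1, CTH and PSAT1 (0.12, 0.12 and 0.14). ULBP1, a ligand of the NK cell receptor NKG2D, had a mean of 12.6 TPM in control and 0.326 TPM with palbociclib. These likenesses are a description over 8 libraries that share groups.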

How the data were processed

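RNA-seq libraries of MV4-11 cells were grouped by the titles that the submitters gave. The deposited values are TPM: according to the methods of the study, the authors aligned reads to hg19 (GRCh37) by subread-align, took gene counts from featureCounts and turned these into TPM. The submitters' processing notes name featureCounts 1.6.4 and SAMtools 1.9. The annotation, gene lengths and strand setting are not given in the sources used here, although the kit is stranded. Depth is unknown.

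log2(TPM + 1) was fitted in limma 3.58.1 under R 4.3.3, all 8 libraries entering with a coefficient for each group (4 residual degrees of freedom), moderated with a mean-variance trend and adjusted by Benjamini-Hochberg over the 14151 genes that reached 1 TPM in 2 or more libraries. The test of the study needs counts, which TPM are not. A call needed a log2 change of 1 or more in size and an adjusted p below 0.01. An exact permutation test of 2 against 2 libraries cannot go below p = 0.333 and was not used. The fit was tested on simulated data before use.

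The 10 genes and all gene lists were chosen with earlier results of these data known. Named were all 10 genes, the 4 eIF2alpha kinases, CEBPB, the paralogs, and of each other list at most the 4 called genes with the largest change per comparison, except 1 that is not reported here. HSPA5, CD33, SPI1, COL1A1, TAGLN, POSTN, CD3E, MS4A1, HBB, MARS1, MBD6, NUP62, IL4I1 and SBF1 were named beside results, outside that rule, and chosen with their values seen. Gene positions are those of GENCODE v44 lifted to GRCh37, and promoter sequences are RefSeq, GRCh38.p14.

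Same-numbered libraries deviated together from their group means in all 6 pairs of groups (correlation 0.169 to 0.491 over genes), so the number was also fitted as a replicate block. Alternatives were a pseudocount of 0.1, no filter, a mean of at least 5 TPM, quantile and median-ratio scaling, the block, no trend, an adjusted p of 0.05, only the groups compared, and each library left out. Counts of called genes per pathway list under these settings were added after seeing the data. Python scripts used pandas and matplotlib.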

Additional observations from a re-analysis of the deposited data

How the results depend on the processing

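The count of the 10 genes called with TCP against control, in the combination against palbociclib and in the interaction was 0 under every alternative run, the replicate block and an adjusted p of 0.05 included, and the block (0 called with TCP, 9 with palbociclib, 9 with the combination and 8 in the combination against TCP) changed no call of the 10. Leaving out 1 library at a time, the called counts ran from 5 to 9 with palbociclib, from 6 to 9 with the combination and from 4 to 9 in the combination against TCP. In the last, fitting only the groups compared gave 5. The median over the 10 ran from -0.86 to -0.047 with TCP, from -2.03 to -1.41 in the combination against TCP and from -0.010 to 0.95 in the interaction when 1 library was left out.

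Signs of single genes that did not pass the test turned as follows. Leaving out 1 library at a time, the TCP difference ran from -0.73 to 0.049 for ATF5, from -0.97 to 0.15 for ASNS and from -1.22 to 0.071 for ADM2. The combination against palbociclib ran from -0.057 to 0.49 for ATF3, from -0.26 to 0.038 for ASNS and from -0.050 to 0.086 for ADM2, which was -0.040 after quantile normalization. The interaction ran from -0.0081 to 0.12 for ATF4, from -0.13 to 0.63 for DDIT3, from -0.064 to 1.14 for TRIB3, from -0.17 to 0.67 for CHAC1, from -0.26 to 0.86 for ASNS and from -0.053 to 1.24 for ADM2. The cause was not tested. No gene called lower with palbociclib or the combination turned sign. TPM keeps no depth, so counting error could not be set beside these values, and 2 libraries per group leave the spread of each group poorly known.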
